A study of Mus musculus with 18 samples.

Results

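The synaptic vesicle and release machinery was followed through 38 genes, chosen by symbol from 34396 genes measured in cells sorted from mouse retinal explants. The list holds synaptotagmins, SNARE proteins and the ATPase system that recycles them, complexins, vesicle proteins, Rab3 and active zone proteins, vesicular glutamate transporters and vesicle retrieval proteins. Every one of the 38 genes was present in both deposited tables and passed the filter on low values in both. The members past the threshold against a control were Syp, Slc17a7, Stx3 and Snap25, lower in Nmnat2 knockdown than in scramble cells, and Slc17a7, lower, and Amph, higher, in Nmnat2 overexpression than in empty vector cells.

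Neurons release transmitter when calcium entering at the active zone is sensed by synaptotagmins, which drive SNARE proteins to fuse docked vesicles with the membrane. NSF and its partners then take the SNARE complexes apart, endocytic proteins recover the vesicle membrane, and vesicular transporters refill it. Photoreceptors and bipolar cells use ribbon synapses, which release glutamate continuously and are known for syntaxin 3 in place of syntaxin 1 and for the complexins 3 and 4.

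Plasmids were brought by electroporation into retinas taken at postnatal day 0.5 from outbred ICR mice, and every group, controls included, received an EGFP plasmid beside its own. After 3 days in explant culture EGFP-positive cells were sorted, so only cells that had taken up plasmid were measured, and their RNA was amplified with SMART-Seq v4. The knockdown table holds cells with a scramble control plasmid (columns C1 to C3), Nmnat1 knockdown cells (N1_1 to N1_3) and Nmnat2 knockdown cells (N2_1 to N2_3). The overexpression table holds empty vector cells (v1 to v3) and cells overexpressing Nmnat1 or Nmnat2, whose columns carry the same names as the knockdown columns. Nmnat1 and Nmnat2 encode a nuclear and a Golgi-associated enzyme that make NAD. Neither the promoters of the plasmids nor the number of animals behind a library is given in the sources used here, and p-values therefore measure the spread between libraries, which may be technical.

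Levels are given in ppm, with the sum of a column set to 1000000, in a signal that scales with reads per transcript length. Low values fell on steps of single reads, which put 1 ppm of a gene with 1 kb of effective length at about 11.3 to 21.03 reads. Nmnat1 was at 19.1, 20.9 and 16.96 ppm in scramble cells and 7.37, 8.54 and 7.49 in Nmnat1 knockdown cells, with no overlap. Nmnat2 was low, at 6.22, 0.624 and 2.03 ppm in scramble and 1.27, 1.01 and 0.503 in Nmnat2 knockdown cells. These groups overlapped, so the values do not show that Nmnat2 was lost. Overexpressed Nmnat1 reached 27832, 15347 and 14797 ppm and overexpressed Nmnat2 20911, 22818 and 21014. Nmnat2 knockdown library N2_2 stood apart: a first principal component with 24.4% of the variance placed it at 129 and the other 8 libraries between -31.2 and -5.83. Mitochondrial genes held 6.51% of its signal, against 2.85% and 2.84% in N2_1 and N2_3, 4.67% in C1 and 2.29% to 2.79% in the other 5. The other Nmnat2 knockdown libraries, N2_1 and N2_3, differed by 4.60 times sampling noise and the pairs of the other knockdown groups by 12.8 to 40.6 times. In the overexpression table that component (35.5%) was negative in the libraries numbered 1 (-24.5, -33.9 and -91.4) and positive in the other 6. Results are therefore also given without N2_2, or without the libraries numbered 1.

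In control cells the 38 mRNAs spanned a wide range. The highest were Cplx3, Syp and Snap25, and the libraries of these 3 genes did not overlap one another in either control group. Complexin 3, a clamp and facilitator of SNARE assembly, was at 875, 863 and 971 ppm in scramble cells and 753, 719 and 755 with the empty vector. Synaptophysin (Syp), an abundant membrane protein of the vesicle, was at 776, 792 and 807 in scramble cells and 866, 960.3 and 924 with the empty vector. Snap25, the SNARE protein of the plasma membrane that contributes a pair of helices, was at 482, 493 and 464 in scramble cells and 684, 625 and 605 with the empty vector. In all, 9 members had a mean above 100 ppm in scramble cells and 10 with the empty vector, 6 lay under 5 ppm in each, and 11 of the 37 pairs of neighbours in the order did not overlap in scramble cells and 15 with the empty vector.

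In several families 1 gene carried nearly all of the signal. Stx3, the syntaxin of ribbon synapses, made up 95.1% ± 0.948 (SD, n = 3) of the summed level of the 2 syntaxins in scramble cells and 95.4% ± 0.561 with the empty vector. Slc17a7, the vesicular glutamate transporter VGLUT1, made up 99.2% ± 0.322 and 99.5% ± 0.172 of its pair, and Slc17a6 (VGLUT2) was at 1.42 and 0.959 ppm. Cplx3 was 93.4% ± 0.819 and 90.1% ± 1.12 of the 4 complexins, whereas Cplx4, the other ribbon complexin, was 1.06% ± 0.122 and 1.51% ± 0.370, below Cplx2 at 3.45% ± 0.450 and 5.74% ± 0.793. No such lead was seen in Unc13a and Unc13b, the Munc13 priming factors, which were nearly even in scramble cells, with 48.9% ± 1.49 for Unc13a.

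Among SNARE proteins Vamp2, the main vesicle SNARE, averaged 191 ppm in scramble and 257 in empty vector cells, Vamp1 16.3 and 14.4, and Stx1a 9.21 and 11.8. Of the SV2 glycoproteins Sv2b averaged 124 and 222, Sv2a 38.3 and 37.2, and Sv2c 1.51 and 0.914. Synapsins, which tether vesicles in the reserve cluster, stood at 16.2 and 16.3 for Syn1, 3.00 and 4.75 for Syn3 and 2.28 and 1.11 for Syn2. Among the large scaffolds of the active zone, Bsn (bassoon) averaged 1.63 and 1.51 ppm, Rims1 3.44 and 2.47, and Pclo (piccolo) 8.42 and 10.01. Their partners Rims2 and Erc2 reached 24.2 and 34.9 ppm in scramble cells. The vesicle GTPase Rab3a averaged 205 ppm there, against 22.9 for Rab3b and 16.7 for Rab3c. Cplx1 averaged 19.9 ppm, Sypl, a synaptophysin relative, 14.2, and Napb, the beta SNAP that brings NSF to SNARE complexes, 37.0. Among retrieval genes the clathrin adaptor Snap91 averaged 42.8, the membrane scission GTPase Dnm1 22.9 and endophilin Sh3gl2 16.3.

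**Figure D1:**
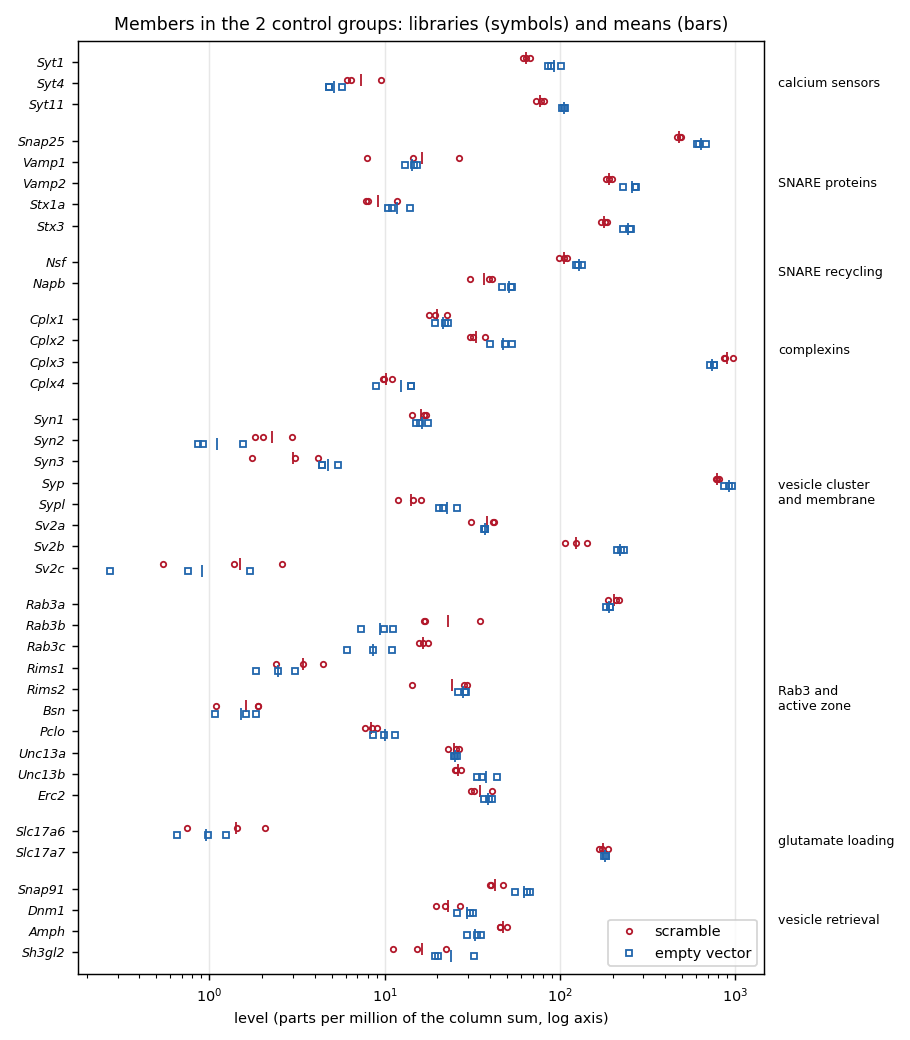
Levels of the 38 genes in the scramble libraries (red circles) and empty vector libraries (blue squares), in ppm on a log axis, grouped by role, with bars at the group means. Cplx3, Syp and Snap25 lie above 460 ppm in all 6 libraries, and the means of Slc17a6, Sv2c, Syn2 and Bsn lie between 0.914 and 2.28 ppm, with single libraries down to 0.270.

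In Nmnat2 knockdown cells 4 members were lower than in scramble cells by limma (adjusted p under 0.05) and 0 were higher. They were the vesicle protein gene Syp, the glutamate transporter gene Slc17a7 and the plasma membrane SNARE genes Stx3 and Snap25. That is 4 of 38 members, or 10.5%, where 97 of 22233 genes passed (0.436%), 17 higher and 80 lower (0.36%). The share over all genes was not matched for level, and these 4 genes averaged 176 to 792 ppm in scramble cells. The members were also chosen with earlier results of these data known. The remaining 34 did not pass, among them all members of the synaptotagmin, SNARE recycling, complexin, Rab3 and active zone, and vesicle retrieval groups. The figures label the synaptotagmin group as calcium sensors. The median log2 fold change of the members was -0.28, beside -0.23 for all genes tested, 9 members had an unadjusted p under 0.05 (16.8% of all genes), and 13 had no overlap between the groups, beside 21.9% of all genes.

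The 4 genes are on different chromosomes. In GRCm38 they are Syp (ENSMUSG00000031144.15, chromosome X, 7638471 to 7653256, plus strand), Slc17a7 (ENSMUSG00000070570.5, chromosome 7, 45163949 to 45176142, plus strand), Stx3 (ENSMUSG00000041488.16, chromosome 19, 11775118 to 11819403, minus strand) and Snap25 (ENSMUSG00000027273.13, chromosome 2, 136713453 to 136782428, plus strand). Exons of Slc17a7, Stx3 and Snap25 overlap those of no other annotated gene, whereas 16.8% of the exonic bases of Syp are shared with the opposite strand gene Gm14703, which a library chemistry without strand cannot separate. Because Syp, Slc17a7 and Stx3 were lower together, the promoters of these 3 genes are shown with that of Amph, from 250 bases before to 50 after the annotated start (RefSeq, GRCm38.p6, read 5′ to 3′ on the gene's strand). Amph did not pass in this comparison, but its knockdown libraries also lay below every scramble library (log2 fold change -0.55). It is therefore no contrast with an unchanged gene. Capitals mark TAATCC or its reverse complement GGATTA, the core that photoreceptor homeodomain factors such as CRX are known to bind, and the GC box GGGCGG or CCGCCC.

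Syp, chrX:7638330-7638629, plus strand: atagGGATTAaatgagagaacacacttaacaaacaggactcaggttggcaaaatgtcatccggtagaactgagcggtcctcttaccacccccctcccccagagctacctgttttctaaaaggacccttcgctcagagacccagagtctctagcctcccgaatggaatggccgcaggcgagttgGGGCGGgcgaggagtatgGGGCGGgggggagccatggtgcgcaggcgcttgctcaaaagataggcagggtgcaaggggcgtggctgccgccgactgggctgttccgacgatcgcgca

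Slc17a7, chr7:45163671-45163970, plus strand: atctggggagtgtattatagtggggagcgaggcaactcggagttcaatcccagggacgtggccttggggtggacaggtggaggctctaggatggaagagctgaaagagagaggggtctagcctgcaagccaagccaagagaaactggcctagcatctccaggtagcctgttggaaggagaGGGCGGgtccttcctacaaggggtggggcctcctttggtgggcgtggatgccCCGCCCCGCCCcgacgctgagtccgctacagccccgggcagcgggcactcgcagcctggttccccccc

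Stx3, chr19:11819354-11819653, minus strand: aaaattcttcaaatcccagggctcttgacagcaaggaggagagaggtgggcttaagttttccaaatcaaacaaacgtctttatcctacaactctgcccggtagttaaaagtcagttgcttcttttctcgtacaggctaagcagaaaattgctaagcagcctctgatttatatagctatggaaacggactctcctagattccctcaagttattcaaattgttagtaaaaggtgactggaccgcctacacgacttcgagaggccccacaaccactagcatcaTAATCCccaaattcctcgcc

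Amph, chr13:18948101-18948400, plus strand: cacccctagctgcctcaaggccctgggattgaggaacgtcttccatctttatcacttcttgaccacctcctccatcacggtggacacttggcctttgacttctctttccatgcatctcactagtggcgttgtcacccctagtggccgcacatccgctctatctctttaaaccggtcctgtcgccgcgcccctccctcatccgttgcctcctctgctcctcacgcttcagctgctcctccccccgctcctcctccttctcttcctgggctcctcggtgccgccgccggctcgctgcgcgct

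TAATCC or its reverse complement lay 246 bases before the start of Syp and 30 after that of Stx3, and was in neither of the other 2 windows. The 32 members with a window had 40 windows in all, of which 4 (10%), in Syp, Stx3 and Sv2b, held these letters, beside 7.06% of all 32851 windows. The GC box was in 25 of the 40 (62.5%), among them those of Syp and Slc17a7, and in 35.7% of all windows. A total of 12 motifs were searched on both strands, and these were described after their matches were seen. The search covered only the letters given and says nothing of binding. Snap25, Vamp2, Syn3, Syt4, Rims2 and Cplx4 were without a window.

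Syp was at 776, 792 and 807 ppm in scramble libraries and at 365, 300.1 and 373 in Nmnat2 knockdown libraries. The knockdown libraries reached at most 373 and the scramble libraries at least 776, so the mean was 2.29-fold lower (log2 fold change -1.20 ± 0.14, limma adjusted p = 0.0213). Slc17a7 was at 166, 173 and 189 ppm in scramble and 60.97, 84.0 and 59.7 in Nmnat2 knockdown libraries. Again the groups did not overlap, and the mean was 2.58-fold lower (-1.37 ± 0.18, limma adjusted p = 0.0213). Stx3 stood at 179.9, 173 and 186 against 88.0, 79.2 and 89.7, a 2.09-fold lower mean (-1.06 ± 0.15, limma adjusted p = 0.0235). Snap25 was at 482, 493 and 464 against 266, 298 and 263, 1.74-fold lower (-0.80 ± 0.13, limma adjusted p = 0.0379). Library N2_2 had the lowest Syp and Stx3 of its group and the highest Slc17a7 and Snap25, and lay with its replicates on the low side of scramble for all 4 genes.

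The median of all genes itself shifted by -0.23 in this comparison, and by -0.04 when libraries were scaled by median of ratios. Relative to the median of all genes the log2 fold changes were -0.97 for Syp, -1.14 for Slc17a7, -0.83 for Stx3 and -0.57 for Snap25. With median-of-ratios scaling Syp and Stx3 still passed (limma adjusted p = 0.0302 and 0.0460) and Slc17a7 and Snap25 did not (0.0563 and 0.166), while all 4 stayed below scramble and the genes past the threshold were 66 higher and 33 lower. Leaving out any 1 library other than N2_2 left 0 members and 0 genes past the threshold by limma, with 6 to 9 members and 2786 to 3466 genes at an unadjusted p under 0.05. Without N2_2 3331 genes passed (15%) and so did 11 members.

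**Figure D2:**
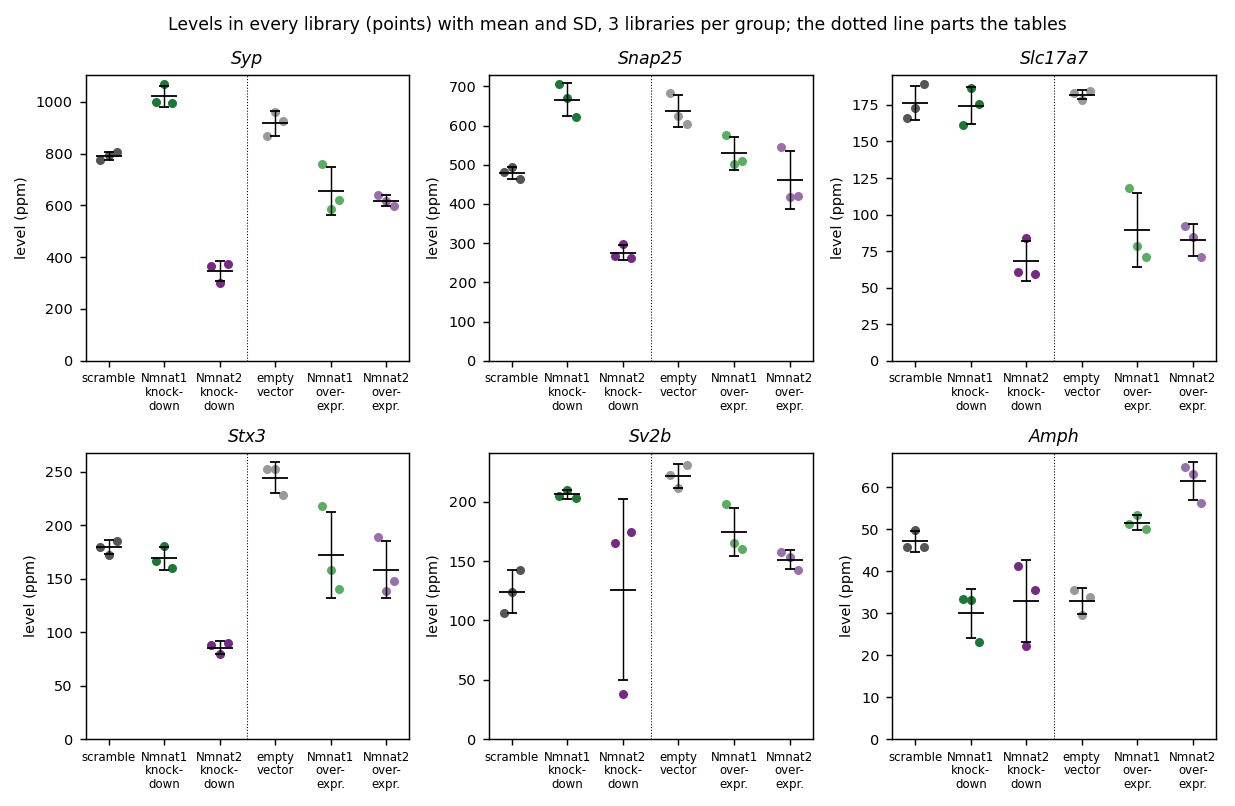
Levels in ppm of Syp, Snap25, Slc17a7, Stx3, Sv2b and Amph in every library (points), with the mean and SD of each group of 3. The dotted line parts the knockdown table (left) from the overexpression table (right), which were scaled apart. Nmnat2 knockdown libraries (dark purple) lie below every scramble library for Syp, Snap25, Slc17a7 and Stx3, and Sv2b is split, with N2_2 at 38.02.

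Among the 11 members that passed without N2_2 the 4 genes above kept their direction. Their values were -1.10 ± 0.06 for Syp, -1.53 ± 0.10 for Slc17a7, -1.005 ± 0.09 for Stx3 and -0.86 ± 0.07 for Snap25 (limma adjusted p = 1.45e-05, 2.10e-05, 0.000115 and 9.78e-05). Nsf, Cplx3 and Rab3a were lower as well. Nsf, the ATPase that separates SNARE complexes, was at 76.1, 76.1 and 71.5 ppm in the knockdown libraries against 99.4, 105 and 110.2 in scramble, with adjusted p = 0.182 with all libraries and 0.0223 without N2_2. Cplx3 was at 663, 499.6 and 654 against 875, 863 and 971, with adjusted p = 0.112 and 0.00306. Without N2_2 the Nmnat2 knockdown group rests on N2_1 and N2_3 alone. These differed by 4.60 times sampling noise, less than any pair of the other knockdown groups (12.8 to 40.6). N2_2 was left out because it stood apart, so the p-values without it may overstate the evidence.

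Without N2_2, Syt1, Syt4, Syt11 and Sv2b were higher. Syt11, a synaptotagmin that does not bind calcium, was at 179, 55.7 and 175 ppm in Nmnat2 knockdown libraries and 73.3, 81.0 and 77.9 in scramble, so that N2_2 lay below every control and the other 2 far above. Its log2 fold change was 0.63 ± 0.37 with all libraries and 1.18 ± 0.10 without N2_2 (limma adjusted p = 0.424 and 9.66e-05). Sv2b was split the same way, at 165, 38.02 and 175 against 106, 124 and 143, and its value went from -0.25 ± 0.47 to 0.46 ± 0.12 when N2_2 was left out. Syt4, another synaptotagmin, was at 17.2, 8.83 and 16.6 against 6.45, 9.58 and 6.07 and went from 0.83 ± 0.34 to 1.12 ± 0.29, and Syt1, the sensor of fast release, from 0.40 ± 0.17 to 0.49 ± 0.10. Removing this 1 library therefore turned the direction of Sv2b, and with it removed 4 members were higher and 7 lower.

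Markers of retinal cell types also differed between these groups. The summed level of 14 rod markers was 9267, 9709.8 and 9219 ppm in scramble and 4261, 7668 and 4246 in Nmnat2 knockdown libraries, and that of 10 cone markers 3528, 3202 and 3095 and 1362, 4784 and 1292. Of 14 amacrine markers the sum was 621, 634 and 633 against 1364, 669.7 and 1359, and of 12 bipolar markers 569, 621 and 619 against 283, 732 and 305. For 11 Müller glia markers it was 4845, 5263 and 5534 against 3401, 2096 and 3273. For 11 progenitor markers it was 489, 476 and 485 against 677, 252 and 685. In Nmnat2 knockdown cells 13 of the 14 rod, 8 of the 10 cone, all 14 amacrine and 9 of the 12 bipolar markers were at 1 ppm or more on average. So were 10 of the 11 Müller glia and 10 of the 11 progenitor markers, and none of these markers was at 0 in every library of a group. In N2_2 the rod sum was above those of N2_1 and N2_3 and the cone sum was the highest of the table. Single markers need not follow these sums. All 3 knockdown libraries, N2_2 among them, lay below every scramble library for 8 of 13 rod and 7 of 10 cone markers tested. The same held for 3 of 9 bipolar, 4 of 10 Müller glia and 2 of 11 progenitor markers. All 3 knockdown libraries lay above scramble for 5 of 14 amacrine and 0 rod or cone markers. Of all genes, 21.9% had no overlap either way. Fewer cells of a type and less RNA per cell cannot be told apart in sorted bulk samples, and the part of cell type markers in the lower levels was not tested.

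**Figure D3:**
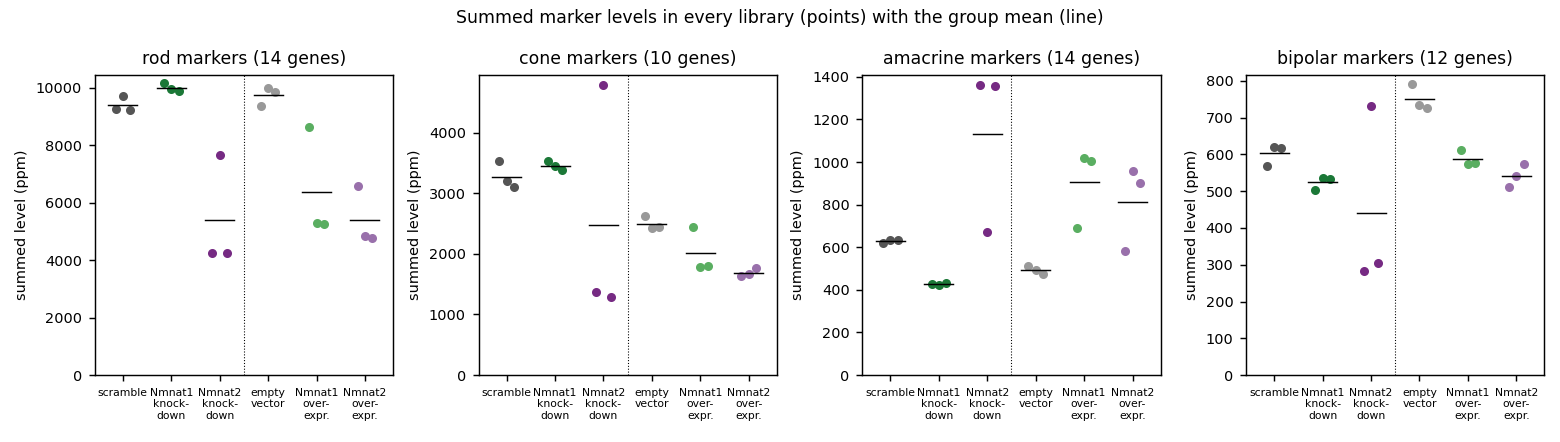
Summed levels in ppm of 14 rod, 10 cone, 14 amacrine and 12 bipolar markers in every library (points), with a line at the group mean and a dotted line between the tables. In the Nmnat2 knockdown group (dark purple) N2_2 lies apart from its replicates in all 4 panels, with a cone sum of 4784 ppm against 1362 and 1292.

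The arms of the knockdown table were also set against each other, with 6 members past the threshold by limma (15.8%, beside 458 genes or 2.06%). Syp, Snap25, Slc17a7, Stx3 and Nsf were higher in Nmnat1 than in Nmnat2 knockdown cells (1.34% of all genes were), and Syt4 was lower (0.715%). With median-of-ratios scaling the genes past the threshold went from 299 higher and 159 lower to 203 and 398. The values were 1.56 ± 0.14 for Syp, 1.27 ± 0.13 for Snap25, 1.36 ± 0.18 for Slc17a7 and 0.97 ± 0.15 for Stx3 (limma adjusted p = 0.00110, 0.00188, 0.00589 and 0.00942). Relative to the median of all genes, which was 0.25, they were 1.32, 1.023, 1.11 and 0.72. Nsf was at 146, 112 and 129 ppm in Nmnat1 knockdown libraries, above all 3 Nmnat2 knockdown libraries, a 1.73-fold higher mean (0.78 ± 0.16, limma adjusted p = 0.0424). Syt4 was at 4.27, 3.53 and 3.18 ppm, below every Nmnat2 knockdown library, and its mean was 3.89-fold lower (-1.66 ± 0.34, limma adjusted p = 0.0365). Syp, Snap25 and Slc17a7 passed in each of the 14 alternative settings, Stx3 in 10, Syt4 in 5 and Nsf in 3. In all 16 of 38 members did not overlap, beside 25.4% of all genes, and 11 had an unadjusted p under 0.05, beside 16.4%. For Syt4 14.5% of the exonic bases are shared with the opposite strand gene Gm26658. The Nmnat2 knockdown libraries are the same as those compared with scramble above.

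Nmnat1 knockdown cells differed from scramble cells in 0 of 38 members by limma, with 32 of 22233 genes past the threshold (0.144%). At an unadjusted p under 0.05 there were 9 members beside 2338 genes (10.5%), 4 of them higher (4.88% of genes) and 5 lower (5.64%). The groups did not overlap in 16 members, beside 24.8% of genes, and the median log2 fold change was 0.08 for members and 0.00 for all genes. Snap25 was at 705, 672 and 623 ppm in the knockdown libraries and Syp at 999, 1067 and 996. Both lay above every scramble library, with log2 fold changes of 0.47 ± 0.13 and 0.36 ± 0.14 (limma adjusted p = 0.238 and 0.387). Slc17a7 and Stx3, in contrast, overlapped scramble, at 161, 187 and 176 ppm and 167, 180.5 and 159.7.

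Cplx2 and Cplx3 lay on opposite sides of scramble. Cplx2, the complexin of conventional synapses, was at 53.7, 65.3 and 66.5 ppm in Nmnat1 knockdown libraries against 37.4, 30.7 and 31.8 (0.87 ± 0.31, limma adjusted p = 0.360). Cplx3 was at 678, 707 and 649.8 against 875, 863 and 971 (-0.41 ± 0.15, 0.371). The groups did not overlap for either gene, and the share of Cplx3 in the 4 complexins was 87.6%, 87.5% and 85.8% in the knockdown libraries, where scramble had 92.6%, 93.4% and 94.2%. Among the vesicle GTPases Rab3b was at 11.1, 8.002 and 7.48 ppm against 16.8, 34.9 and 17.1 (-1.21 ± 0.34, limma adjusted p = 0.232) and Rab3c at 7.15, 8.39 and 14.2 against 16.6, 17.8 and 15.6 (-0.75 ± 0.28, 0.384). All 3 knockdown libraries lay below scramble for both, while Rab3a was at 248, 227 and 229 against 209, 217 and 189, above scramble. Sv2b was at 205, 210.1 and 203 against 106, 124 and 143, and Amph at 33.5, 33.2 and 23.3 against 45.7, 50.0 and 45.8, each without overlap.

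The fit takes its spread from all 9 libraries of the table. Without N2_2, which is in neither group, 1802 genes (8.11%) and 7 members passed: Snap25, Syp, Cplx2 and Sv2b were higher, and Cplx3, Rab3b and Amph were lower (limma adjusted p from 0.00280 for Snap25 to 0.0349 for Amph). A fit on the 2 groups alone gave 969 genes (4.36%) and 5 members, the same without Rab3b and Amph. N2_2 was left out because it stood apart, so the p-values without it may overstate the evidence. The amacrine marker sum was 429, 422 and 432 ppm in Nmnat1 knockdown libraries and the Müller glia sum of 11 markers 2574, 2670.1 and 2703, both below scramble (4845, 5263 and 5534 for Müller glia), and the rod sum was 10162, 9960.0 and 9888. Of 13 rod markers tested, 4 lay above every scramble library and 4 below, beside 24.8% of all genes without overlap either way. The progenitor sum of 11 markers was 230, 258 and 237 against 489, 476 and 485 in scramble, with 8 of the 11 below every scramble library. All 14 amacrine, 10 of 11 Müller glia, 10 of 11 progenitor and 13 of 14 rod markers were at 1 ppm or more, none was at 0 in every library, and their part in the values was not tested.

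In Nmnat2 overexpression cells 2 of 38 members passed by limma (5.26%, beside 114 of 20725 genes or 0.55%). Amph, which encodes amphiphysin, a protein that brings dynamin to endocytic pits, was higher (0.203% of genes were), and Slc17a7 was lower (0.347%). Amph (ENSMUSG00000021314.12, chromosome 13, 18948205 to 19150921, plus strand) was at 35.6, 29.5 and 33.9 ppm with the empty vector and at 64.9, 63.3 and 56.3 with Nmnat2 overexpression. The groups did not overlap, and the mean was 1.87-fold higher (0.88 ± 0.12, limma adjusted p = 0.0173). Slc17a7 was at 183, 179 and 184 with the empty vector and 92.0, 84.8 and 70.8 with overexpression, 2.20-fold lower without overlap (-1.14 ± 0.17, limma adjusted p = 0.0258). Amph passed in 11 and Slc17a7 in 10 of 16 alternative settings. Each lost its call when any 1 of the libraries v1, v2, v3, N2_2 or N2_3 was left out, and Slc17a7 also without N1_2, with no change of sign.

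Sv2b, Rab3c, Syp, Snap25 and Stx3 did not pass in this fit but had no overlap with the controls. Sv2b was at 158, 154 and 142 ppm against 222, 211 and 231 with the empty vector (-0.55 ± 0.10, limma adjusted p = 0.0550). Rab3c was at 18.6, 17.8 and 19.4 against 10.96, 8.58 and 6.08 (1.07 ± 0.21, 0.0561), and Syp at 641, 618 and 596 against 866, 960.3 and 924 (-0.57 ± 0.11, 0.0577). Snap25 was at 546, 419 and 419 against 684, 625 and 605 and Stx3 at 189, 139 and 147 against 252, 253 and 228 (limma adjusted p = 0.144 and 0.151). In all 16 of 38 members were without overlap, beside 16.3% of all genes, 12 had an unadjusted p under 0.05, beside 10.3%, and the median log2 fold change was -0.08 for the members and 0.06 for all genes.

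Nmnat1 overexpression gave 0 members past the threshold by limma, with 25 genes in all (0.121%), and 9 members at an unadjusted p under 0.05 beside 9.57% of all genes, 4 higher (4.44%) and 5 lower (5.13%). The median was -0.13 for members and -0.04 for all genes, and 13 members did not overlap the controls, beside 17.8% of genes. Slc17a7 was at 118, 78.5 and 71.0 ppm (-1.05 ± 0.17, limma adjusted p = 0.0581) and Amph at 51.3, 53.5 and 50.0 (0.63 ± 0.12, 0.0782). Both lay wholly outside the range of the empty vector libraries, which are the controls of both overexpression arms. Syp was at 759.5, 587 and 621 (-0.49 ± 0.11, limma adjusted p = 0.124), Rab3c at 15.9, 13.9 and 16.0 (0.179), Syt4 at 7.83, 11.8 and 10.4 against 4.81, 5.73 and 4.85 (0.195) and Sv2b at 198, 165 and 159.9 (0.263). Each of these 4 was likewise without overlap with the empty vector, and library N1_1 was nearest to the controls for Slc17a7, Syp, Syt4 and Sv2b.

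The libraries numbered 1 weighed on both overexpression comparisons. Leaving out v1, N1_1 and N2_1 gave 1666 genes (8.04%) and 10 members for Nmnat1, 5 in each direction, and 1222 genes (5.9%) and 11 members, 4 higher and 7 lower, for Nmnat2. Amph, Rab3b, Rab3c and Syt11 were then higher, and Slc17a7, Syp, Snap25, Stx3 and Sv2b lower, in both arms. Slc17a7 stood at -1.27 ± 0.10 and -1.22 ± 0.10 (limma adjusted p = 0.00110 and 0.00155) and Syp at -0.64 ± 0.05 and -0.63 ± 0.05 (0.00106 and 0.00121). Rab3b, in all libraries at 11.5, 27.2 and 28.5 ppm with Nmnat1, 12.4, 20.6 and 25.5 with Nmnat2 and 11.1, 9.99 and 7.30 with the empty vector, was at 1.60 ± 0.18 and 1.32 ± 0.18 without them. The 2 arms share their controls, so these values are not independent. Each group then held only its libraries numbered 2 and 3. The libraries numbered 1 were left out because they stood apart, so these p-values may overstate the evidence.

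Set against each other, the Nmnat1 and Nmnat2 overexpression arms differed in 0 of 38 members by limma, beside 4 genes of 20725 (0.0193%), and in 1 member, Dnm1, at an unadjusted p under 0.05, beside 924 genes (4.46%). The groups did not overlap in 5 members, beside 8.34% of genes. The difference was 0.09 ± 0.17 for Slc17a7, 0.08 ± 0.11 for Syp and -0.25 ± 0.12 for Amph (log2, ± SE), and the missed threshold does not show that the arms acted alike.

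Marker sums also differed in the overexpression table. The rod sum was 9363, 9972 and 9863 ppm with the empty vector, 8634, 5284 and 5241 with Nmnat1 and 6594, 4847 and 4759 with Nmnat2. The amacrine sum was 511, 492 and 474 with the empty vector, 691, 1017 and 1007 with Nmnat1 and 580.1, 956 and 899.6 with Nmnat2. Every library with either enzyme thus lay below the empty vector for rod and above it for amacrine markers, and the library numbered 1 was nearest to the controls in both arms. The bipolar sum was 792, 736 and 726 with the empty vector, 612, 575 and 576 with Nmnat1 and 510, 542 and 575 with Nmnat2. Of 9 bipolar markers tested, 1 in each arm lay below every empty vector library. The sum of 5 horizontal markers was 34.3, 34.7 and 33.3, then 58.7, 66.7 and 59.2, then 54.4, 70.5 and 64.6 in the same order. In each group 13 of 14 rod, all 14 amacrine, 9 of 12 bipolar and 4 of 5 horizontal markers were at 1 ppm or more. None of them was at 0 in every library, and their part in the values was not tested.

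**Figure D4:**
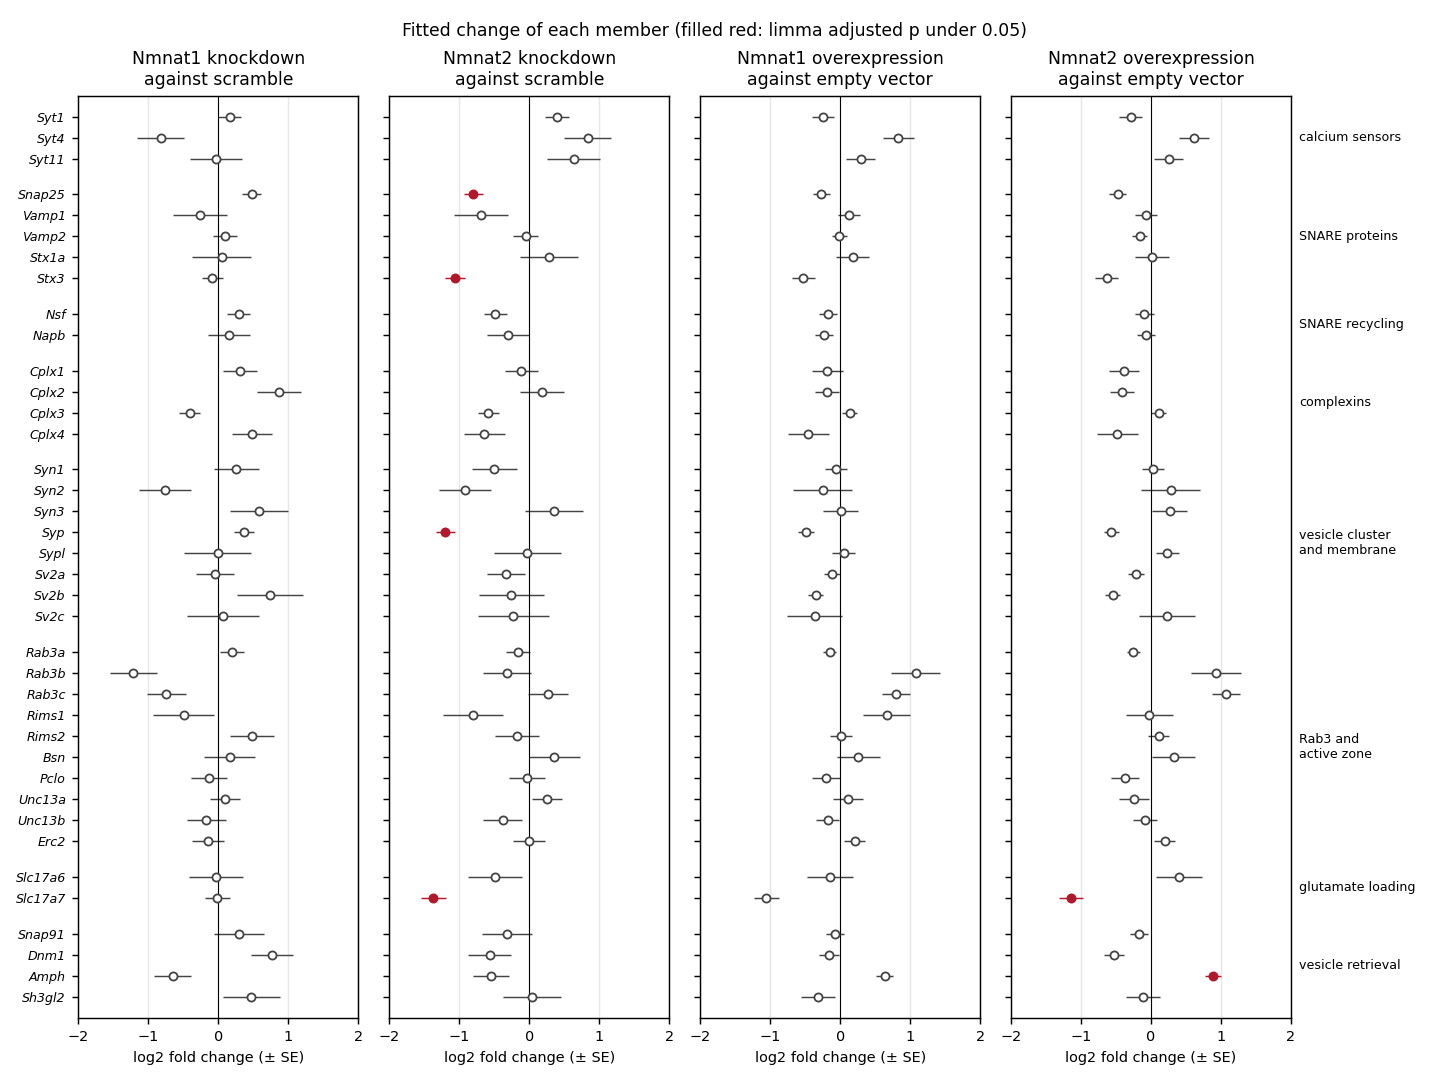
Fitted log2 fold changes (± SE) of the 38 genes against the control of their table, grouped by role, with filled red points where the limma adjusted p was under 0.05. Filled points are Snap25, Stx3, Syp and Slc17a7 with Nmnat2 knockdown and Slc17a7 and Amph with Nmnat2 overexpression, and there are none in the other 2 panels.

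Side by side, the 4 comparisons with a control gave these log2 fold changes for the glutamate transporter Slc17a7: -0.01 ± 0.18 with Nmnat1 knockdown, -1.37 ± 0.18 with Nmnat2 knockdown, -1.05 ± 0.17 with Nmnat1 overexpression and -1.14 ± 0.17 with Nmnat2 overexpression. Slc17a7 thus lay lower in the Nmnat2 knockdown libraries and in both overexpression arms. The knockdown and overexpression libraries had separate controls. Loss of Nmnat2 was not shown in the knockdown libraries. For Syp the values were 0.36 ± 0.14, -1.20 ± 0.14, -0.49 ± 0.11 and -0.57 ± 0.11 in the same order, and for Stx3 -0.09 ± 0.15, -1.06 ± 0.15, -0.53 ± 0.17 and -0.63 ± 0.17. Amph, in turn, was at -0.65 ± 0.26, -0.55 ± 0.26, 0.63 ± 0.12 and 0.88 ± 0.12. Of these values, those of Slc17a7, Syp and Stx3 with Nmnat2 knockdown and of Slc17a7 and Amph with Nmnat2 overexpression passed the threshold, and no test was made across the tables.

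Shares within families are given as values, with no test. With Nmnat2 knockdown the summed syntaxin signal was 105, 84.2 and 105 ppm, and Stx1a made up 16.5%, 5.95% and 14.8% of it, where scramble had 4.28%, 4.34% and 5.95%. Stx1a, the syntaxin of conventional synapses, was itself at 17.4, 5.01 and 15.5 ppm against 8.04, 7.84 and 11.8, with overlap. The share in N2_2 thus lay within the scramble range and the other 2 above it. For the glutamate transporters the share of Slc17a7 with Nmnat2 knockdown was 98.9%, 98.5% and 99.6%, overlapping scramble at 99.6%, 99.2% and 98.9%. Rab3a made up 91.3% ± 2.16 of the 3 Rab3 genes with the empty vector, 82.0% ± 3.98 with Nmnat1 and 80.8% ± 2.71 with Nmnat2 overexpression, as Rab3b and Rab3c lay higher and Rab3a at 176, 157 and 181 and 154, 165 and 158 ppm, below 183, 193 and 194. The share of the vesicle SNARE Vamp2 in the VAMP pair overlapped the control in both Nmnat2 arms, at 95.5% ± 0.0806 with knockdown against 92.3% ± 3.88 in scramble, and 94.4% ± 0.661 with overexpression against 94.7% ± 0.719 with the empty vector.

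With Nmnat2 knockdown Amph, Dnm1, Cplx4, Rims1 and Syn2 lay below every scramble library and Rab3c and Syt1 above, none of them past the threshold (limma adjusted p = 0.267 for Syt1 and 0.676 for Rab3c, the largest). Cplx2, Rab3a, Rab3b, Vamp1, Vamp2, Stx1a, Napb, Cplx1, Syn1, Syn3, Sypl, Sv2a, Sv2c, Rims2, Bsn, Pclo, Unc13a, Unc13b, Erc2, Slc17a6, Snap91 and Sh3gl2 overlapped scramble in that comparison. Across the 4 comparisons with a control the fitted values of these genes, Cplx2 and the Rab3 pair aside, ranged from -0.69 ± 0.38 for Vamp1 with Nmnat2 knockdown to 0.58 ± 0.41 for Syn3 with Nmnat1 knockdown, and none passed. Sv2c, Slc17a6, Syn2 and Bsn averaged 0.914 to 2.28 ppm in the controls, where the log2(ppm + 1) scale shrinks a change.

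Of 83 other genes of release and retrieval 82 were in the tables, all but Vamp7, and 75 and 73 passed the filter. Against scramble 0 of 75 passed the threshold by limma with either knockdown, with 11 (14.7%) and 13 (17.3%) at an unadjusted p under 0.05, beside 10.5% and 16.8% of all genes. Against the empty vector 0 of 73 passed with Nmnat1 overexpression (14 unadjusted, or 19.2%, beside 9.57% of all genes). With Nmnat2 overexpression 3 of 73 (4.11%, beside 0.55% of all genes) passed, and all 3 were lower (0.347% of all genes). They were Bin1, an amphiphysin relative, at 127, 137 and 132 ppm against 233, 225 and 215 (-0.76 ± 0.10, limma adjusted p = 0.0173), the clathrin light chain Cltb at 266, 307 and 328 against 509, 494 and 488 (-0.73 ± 0.10, 0.0173) and the vesicle protein synaptogyrin, Syngr1, at 80.4, 84.9 and 86.6 against 119, 132 and 134 (-0.61 ± 0.11, 0.0498). All 3 lost the call when any 1 of v1, v2, v3, N2_2 or N2_3 was left out (limma adjusted p up to 0.120 for Bin1 and Cltb and 0.267 for Syngr1), and Syngr1 also without N1_2 or N1_3. Amph and Bin1, which are related, thus lay on opposite sides of the empty vector. Between the knockdown arms 3 of 75 passed (4%, beside 2.06% of all genes): Napa, the alpha SNAP, and Syngr1 were higher in Nmnat1 than in Nmnat2 knockdown cells (0.75 ± 0.16 and 0.86 ± 0.18, limma adjusted p = 0.0449 and 0.0438), and the Rab3 effector Rph3a was lower (-1.98 ± 0.44, 0.0499). The calls of these 3 genes were lost when any 1 library other than N2_2 was left out, with limma adjusted p up to 0.196 for Napa, 0.204 for Syngr1 and 0.199 for Rph3a. Rph3a was at 3.80, 2.17 and 3.47 ppm with Nmnat1 and 20.9, 6.58 and 24.0 with Nmnat2 knockdown, with N2_2 again the lowest of its group.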

How the data were processed

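Expression was measured in 18 libraries of EGFP-positive cells, 6 groups of 3. Per the submitters' processing notes, Salmon 0.11.3, sleuth 0.30.0 and GRCm38.p6 were used, in roles not given. The deposited values are an expression signal that the authors computed. The tables are named TPM, but columns summed to 14.4 to 29.6 (knockdown) and 17.3 to 26.2 (overexpression) times 1000000, so the unit is not known. In genes with 1 transcript 80.7% to 86.2% of low values lay within 0.1 of a whole number of reads once the step and length offset were fitted (19.6% to 23.9% with lengths shuffled), which gave relative depths of 0.691 to 1.28 and 0.809 to 1.13. The step rule was revised after its values were seen, since the earlier rule had taken fractions of a read for reads in several libraries. Genes with several transcripts gave no reads, so no count test was run.

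The incomplete last line of each table was left out, which left 34385 and 34396 genes. Values were scaled to ppm of the column sum. A gene was kept (22233 and 20725 were) where 3 or more of the 9 libraries held 1 ppm or more. limma 3.58.1 in R 4.3.3 was fitted to log2(ppm + 1), a scale that understates changes of low genes, with the 3 groups of a table in 1 fit and a trend of variance on level. All p-values are two-sided, with Benjamini-Hochberg adjustment over all genes of a table and a threshold of 0.05. The fit was tested on simulated data with independent noise of equal spread in every group. These data held no library apart such as N2_2 and no effect of the replicate number, so they do not speak to either. Fold differences are ratios of group means in ppm.

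Knockdown columns show a group but not a sample number. The titles of 1 Nmnat2 knockdown and 1 Nmnat2 overexpression sample name Nmnat3, and their other labels, which name Nmnat2, were followed. The 38 members, the other release genes and the marker lists were chosen with earlier results of these data known. All members are named, and values in every library are given for members past the threshold against a control or with 1 of the 6 smallest p-values in such a comparison. Coordinates come from GENCODE M21 on GRCm38 and promoters from RefSeq. Alternatives covered the pseudocount, filter, scaling, groups in the fit, each library left out, the libraries numbered 1 and the replicate number. Drawing used matplotlib 3.10.9 in Python 3.11.15.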

Additional observations from a re-analysis of the deposited data

How the results depend on the processing

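Among the values of named genes in each comparison, 465 kept their direction and side of the threshold, 36 passed only under an alternative, 129 lost their call, and 0 changed sign. Sv2b with Nmnat2 knockdown, not among them, turned without N2_2. For Nmnat1 knockdown against scramble, 17 genes passed with a pseudocount of 0.25, 14 without the filter, and 969 with 5 members in a fit of the 2 groups only. For Nmnat2 knockdown, 32 genes passed without the filter, median-of-ratios scaling left 2 members and a member median of -0.077, and the fit of 2 groups by limma left 0 members and 0 genes (6 and 2932 at an unadjusted p under 0.05). Between the knockdown arms the fit of 2 groups left 3 members and 108 genes. For Nmnat1 overexpression the member median was -0.067 with a pseudocount of 5, and 16 genes passed without the filter and 9 (8 higher, 1 lower, against 19 and 6) with median-of-ratios scaling. For Nmnat2 overexpression 48 and 71 passed. Between the overexpression arms the median was 0.14 with that scaling, and 2 genes passed in the fit of 2 groups. Without the libraries numbered 1, 10 members and 1666 genes passed for Nmnat1 overexpression, 11 and 1222 for Nmnat2, and 38 genes between the arms. The cause of these shifts was not tested.

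Leaving out 1 library at a time gave 0 to 7 members, 0 to 1802 genes and medians of 0.0031 to 0.14 for Nmnat1 knockdown, and 0 to 11, 0 to 3331 and -0.45 to -0.058 for Nmnat2 knockdown. Between those arms it gave 3 to 13, 80 to 2904 and 0.064 to 0.44. Nmnat1 overexpression gave 0 to 4, 3 to 271 and -0.13 to -0.064, Nmnat2 overexpression 0 to 7, 3 to 301 and -0.13 to -0.03, and the contrast of both 0 members throughout, 2 to 11 genes and -0.038 to 0.073, where the median turned to -0.038 without N2_1. Removing N2_2 gave each highest count in the knockdown table.

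With the replicate number as a block, 2 members (Amph and Slc17a7) and 187 genes passed for Nmnat1 overexpression, and 7 (these and Rab3c, Snap25, Syp, Stx3 and Sv2b) and 269 for Nmnat2. Deviations of same-numbered libraries correlated at 0.027 to 0.461, all positive but not all above 0.1. Libraries numbered 1 correlated with those numbered 2 or 3 in other groups at -0.378 to -0.0627. Deviations are taken from group means and cancel within a group, so positive values at the same number force negative ones elsewhere. The negative values are therefore no further evidence of a pairing. The labels do not say what a number shares, so the main fit left the numbers out. Its counts may therefore ignore a pairing, and what the numbers share was not tested. The Nmnat1 and Nmnat2 libraries correlated at 0.461, 0.285 and 0.139, and not every library correlated best with its own number. Knockdown columns carry no sample numbers, and no paired fit was made there. Depth limits members near 1 ppm, such as Sv2c and Slc17a6.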
